A study of Mus musculus with 15 samples.

Results

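TNF-α stimulation of BAF-knockdown fibroblasts was followed at gene promoters by H3K4me1 ChIP-MNase, in 4 of the 15 libraries of the series. The members were chosen by their labels, as the 2 libraries of stimulated and the 2 libraries of non-stimulated knock-down cells, and by a coverage limit on promoters. A promoter was used where the deposited coverage score, which counts fragments near its TSS in non-stimulated cells, was above 100, which kept 13559 of the 25881 annotated promoters (52.4%). All cells were mouse 3T3 fibroblasts, an established embryonic fibroblast line. Knock-down cells (2 libraries non-stimulated, 2 treated for 1 h with TNF-α, 5 ng/ml) stably expressed an shRNA from a retroviral vector with a U6 promoter, directed at a sequence that the mRNAs of Brg1 (Smarca4) and Brm (Smarca2) share. They were a sorted population with high GFP expression and not a single clone. Control fibroblasts, not knocked down, are labelled fibro_control, and had 2 libraries in each of the same states. The labels give replicate numbers but do not tie them to separate cultures, so that p-values measure the spread between these libraries. Occupancy is not mRNA, so the knock-down itself was not checked here.

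Nucleosomes wrap DNA and protect it from micrococcal nuclease (MNase), whereas the stretch just upstream of the TSS of an active gene is often open to the enzyme and is called the nucleosome depleted region (NDR). BAF (SWI/SNF) is an ATP-driven complex that slides or evicts nucleosomes, with Brg1 or Brm as its motor subunit. TNF-α binds receptors on the cell surface, the IKK kinases then release NF-κB from its IκB inhibitors, and NF-κB binds κB sequences near inflammatory genes in fibroblasts within minutes to hours.

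The deposited occupancy of each 10 bp bin is relative to the surrounding 1 kb, so a gain or loss of nucleosomes over a whole kilobase is not seen. In a bulk sample, fewer cells with an NDR and a shallower NDR in each cell cannot be told apart. Mean occupancy of the 4 knock-down libraries lay between 0.791 and 0.803, and the share of bins with any signal between 67.9% and 78.1%. That share followed the replicate number and not the state, as non-stimulated cells had 78.1% and 67.9% and stimulated cells 76.0% and 68.3% in replicates 1 and 2. The deposited names also carry a code that differs between replicates 1 and 2 of the knock-down and is the same in both states, and its meaning is not given. Each state therefore held 1 library of either kind.

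Active promoters had a deeper mean NDR after TNF-α in the knock-down libraries. The NDR ratio compares mean occupancy in the NDR (window from −150 to 0 bp) with mean occupancy in the upstream flank (−1000 to −500 bp), so that a low ratio is a deep NDR. It was 0.662 and 0.677 in non-stimulated cells and 0.529 and 0.539 after TNF-α at 6397 active promoters. Both stimulated libraries lay below both non-stimulated libraries, and the gap between states was larger than the distance between replicates. Means were 0.670 ± 0.0103 (SD, n = 2) and 0.534 ± 0.0068 (SD, n = 2), a difference of −0.136. With 2 libraries against 2, the exact permutation test (two-sided) gave p = 0.33, the smallest value this design allows. The share of active promoters whose own NDR held under 0.5 of their mean occupancy was 42.3% and 44.0% before and 54.7% and 56.4% after stimulation.

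In control fibroblasts the same ratio was 0.699 and 0.535 without and 0.655 and 0.587 with TNF-α. These values overlapped between states and split by replicate number, and the second non-stimulated control library (0.535) had as deep an NDR as the stimulated knock-down libraries. The difference between the knock-down and the control change was −0.139 (exact permutation test over 36 splits, p = 0.167), so a change particular to the knock-down was not shown.

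**Figure D1:**
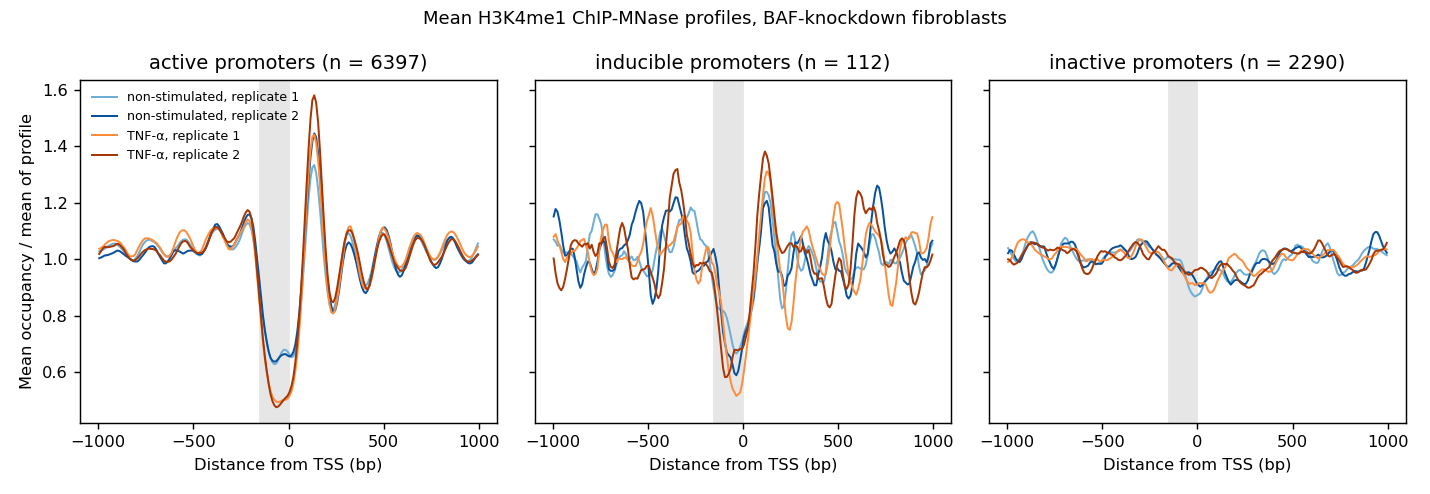
Mean occupancy in each 10 bp bin divided by the mean of the profile, against distance from the TSS in bp, for active, inducible and inactive promoters, with 1 line for each BAF-knockdown library and the NDR window shaded. At active promoters both TNF-α lines run below both non-stimulated lines throughout the shaded window, whereas the +1 peaks overlap; at inactive promoters no line shows a clear NDR.

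Of the windows compared along the active profile, the NDR was the only one in which the states were apart in every bin, though shorter runs of such bins also lay outside it. Relative to the profile mean, both stimulated libraries were below both non-stimulated ones in 15 of the 15 bins from −150 to 0 bp, with a mean difference of −0.133. From 0 to 100 bp the same held for 5 of 10 bins, and over all 200 bins 30 were lower and 36 higher without overlap. Neighbouring bins share signal, as occupancy is averaged over 50 bp, so bins are not separate observations. The lowest point of the active profile was 0.629 and 0.638 of the mean before and 0.495 and 0.477 after stimulation, and lay at −75 bp in both non-stimulated libraries and at −55 and −65 bp in the stimulated ones.

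The nucleosome downstream of the NDR, called +1, had a height that overlapped between states at active promoters. Its peak lay at 135 bp in all 4 libraries, and its height over the profile mean was 1.33 and 1.45 before and 1.44 and 1.58 after TNF-α. The stimulated replicate 1 lay between the non-stimulated replicates (exact permutation p = 0.667), while within either replicate number the stimulated library was the higher one. From 100 to 180 bp, 3 of 8 bins were higher without overlap and 0 lower, with a mean difference of 0.106. The +2 peak was 1.09 and 1.06 before and 1.12 and 1.1 after stimulation, higher without overlap, and 1.08 and 1.13 without and 1.07 and 1.04 with TNF-α in the controls. The −1 peak was 1.13 and 1.16 before and 1.14 and 1.17 after stimulation and overlapped as well. Nucleosome spacing at the same promoters, taken as the period of the occupancy autocovariance, was 174.9 and 176.3 bp before TNF-α and 176.9 and 175.8 bp after it, and the values overlapped. With a quadratic trend removed the period was 180.9 and 185.5 bp before and 181.7 and 186.7 bp after, which also overlapped. The absolute spacing thus depends on the method.

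The patterning level combines these features in 1 number per promoter: it is the sum over bins of the product of the centred profile of that promoter and the centred mean profile of active promoters, so that a high level means an NDR and phased nucleosomes at the usual places. The median level of active promoters was 3.26 and 3.59 in non-stimulated and 4.41 and 4.79 in stimulated knock-down cells. The stimulated values were both higher, by 1.17 between means of 3.43 ± 0.234 and 4.60 ± 0.264 (SD, n = 2 each, exact permutation p = 0.33). Control libraries had medians of 3.18 and 4.53 without and 3.65 and 4.36 with TNF-α, which overlapped, and the difference between the changes was 1.02 (exact permutation p = 0.278).

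The difference between states was larger in size where a CpG island (CGI), a GC-rich stretch common at housekeeping promoters, covered the TSS. Active CGI promoters (n = 4927) had NDR ratios of 0.613 and 0.627 before and 0.457 and 0.463 after TNF-α, a difference of −0.160. Active promoters without a CGI (n = 1469) had 0.832 and 0.847 before and 0.775 and 0.800 after it, a difference of −0.0518. Neither pair of states overlapped, and whether the effects of the 2 sets differ was not tested.

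Expression before stimulation did not order the effect clearly. When active promoters were cut into 5 groups of increasing expression, the stimulated libraries were lower without overlap in each group, and the differences were −0.112, −0.146, −0.126, −0.136 and −0.158 from the least to the most expressed group. In the least expressed group the ratios were 0.713 and 0.715 before and 0.581 and 0.622 after stimulation. In the most expressed group they were 0.649 and 0.663 before and 0.50 and 0.496 after.

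Inactive promoters, of genes with no transcript in non-stimulated fibroblasts, showed no such difference as a class. Their NDR ratio was 0.933 and 0.942 before and 0.922 and 0.955 after stimulation (n = 2290), and the median patterning level was 0 in all 4 libraries. A promoter without signal scores exactly 0 in this measure, and only 2084 of the 2290 had signal in all 8 libraries. CGI promoters among them (n = 398) stood apart with ratios of 0.868 and 0.895 before and 0.749 and 0.786 after TNF-α. Control libraries gave 0.861 and 0.730 without and 0.872 and 0.843 with TNF-α for the same promoters. The difference between the knock-down and control changes was −0.176 (exact permutation p = 0.0556, the smallest that 36 splits allow), and was not past the threshold when adjusted over the 23 overlapping promoter sets examined (adjusted exact permutation p = 0.425). Their median patterning level of 0.36 and 0.30 before and 0.51 and 0.33 after stimulation overlapped between states. Inactive promoters without a CGI (n = 1892) had ratios of 0.947 and 0.952 before and 0.958 and 0.991 after TNF-α, so that the stimulated libraries were the higher ones.

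**Figure D2:**
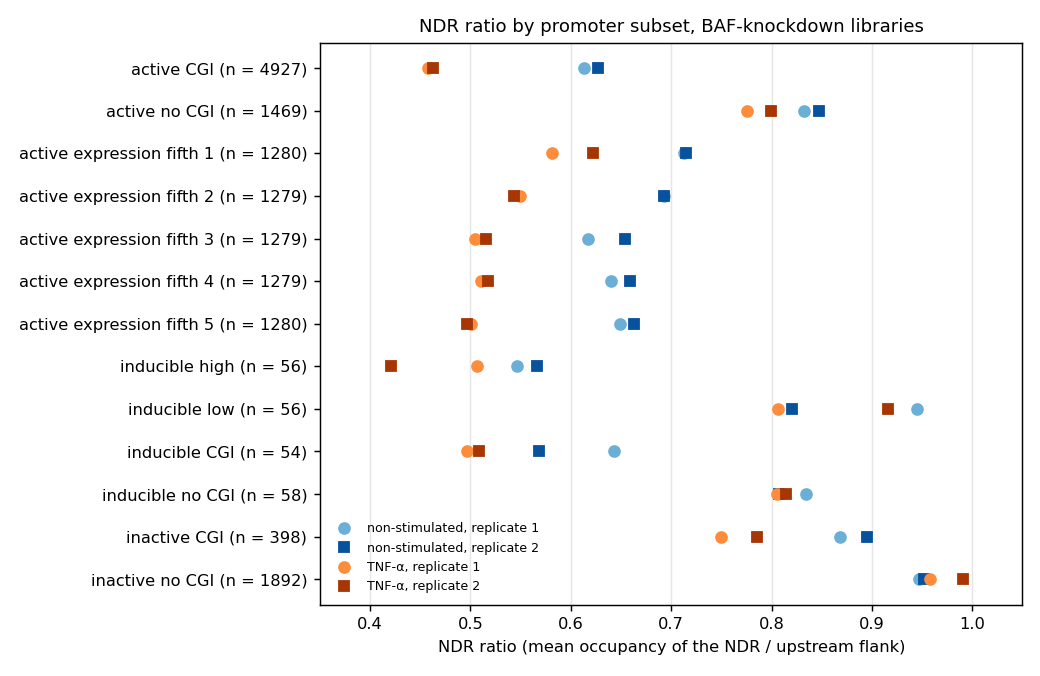
NDR ratio (mean occupancy of the NDR over that of the upstream flank, x axis) of 13 promoter subsets (y axis, with the number of promoters), with 1 point for each BAF-knockdown library. Both TNF-α points lie left of both non-stimulated points in every active subset, in inactive CGI promoters, and in the inducible subsets with high patterning or a CGI, but overlap with them in inducible promoters with low patterning or without a CGI, and lie to the right at inactive promoters without a CGI.

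Inducible promoters, those of genes with a TNF-α response above 0.35 on the log2 scale of the array data in the deposited annotation, numbered 112 among the covered promoters. Their NDR ratio was 0.743 and 0.694 before and 0.655 and 0.671 after TNF-α, a difference of −0.0558. The control change was of like size, with 0.741 and 0.694 without and 0.711 and 0.630 with TNF-α (difference between changes −0.00856, exact permutation p = 0.778). With a coverage score above 200 the knock-down difference was 0.00396 and the states overlapped, and without non-stimulated replicate 1 it was −0.0314.

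Their +1 nucleosome and patterning level were both higher after stimulation. The mean occupancy from 100 to 180 bp over the profile mean was 1.17 and 1.12 before and 1.23 and 1.28 after TNF-α, and the stimulated libraries were higher in 8 of the 8 bins of this window, with a mean difference of 0.108. The median patterning level was 1.49 and 2.22 before and 2.83 and 3.31 after stimulation, without overlap (difference 1.21, exact permutation p = 0.33). Controls had 2.29 and 2.54 without and 2.30 and 3.63 with TNF-α, which overlapped, and the changes did not differ past the threshold (exact permutation p = 0.444).

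The inducible promoters were divided by their patterning in the pooled libraries of normal non-stimulated fibroblasts. The 56 high-patterned promoters had median levels of 4.35 and 3.06 before and 5.46 and 6.22 after stimulation, and NDR ratios of 0.546 and 0.566 before and 0.507 and 0.421 after. The 56 low-patterned promoters had median levels of 0.19 and 1.08 before and 0.73 and 0.80 after stimulation, and NDR ratios of 0.945 and 0.820 before and 0.806 and 0.916 after, and both measures overlapped. A CGI drew a similar line, as 54 inducible CGI promoters had ratios of 0.643 and 0.569 before and 0.496 and 0.508 after TNF-α, against 0.834 and 0.808 before and 0.805 and 0.815 after at 58 without a CGI, where the states overlapped.

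**Figure D3:**
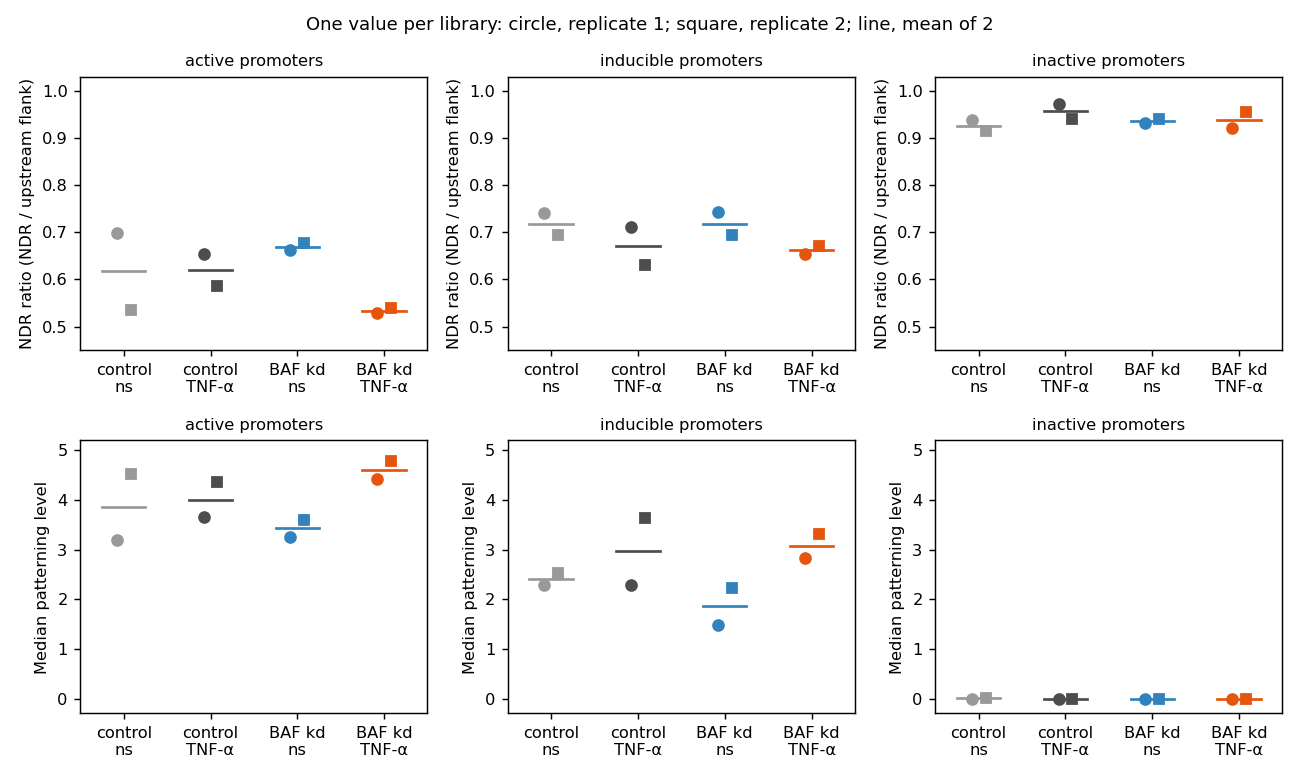
NDR ratio (top) and median patterning level (bottom) of active, inducible and inactive promoters, with 1 point per library (circle, replicate 1; square, replicate 2) and a line at the mean of 2, for control (labelled ns without stimulation) and BAF-knockdown (BAF kd) fibroblasts. At active promoters the knock-down states are apart, with ratios of 0.662 and 0.677 against 0.529 and 0.539, whereas the control replicates spread from 0.535 to 0.699.

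The κB sequence was searched in the promoter window from 250 bp before to 50 bp after the TSS (genomic sequence, mm9), since NF-κB is the main factor downstream of TNF-α. A match to the κB consensus on either strand, overlapping matches included, was found in 33.0% of the covered inducible promoters (37 of 112), against 10.0% of all covered and 9.05% of all promoters. Inducible promoters with a match had median patterning levels of 0.59 and 2.50 before and 3.66 and 3.59 after stimulation. Those without a match (n = 75) had 2.10 and 2.02 before and 2.57 and 3.02 after, so that neither set overlapped between states. The NDR ratio of the promoters with a match overlapped, at 0.786 and 0.577 before and 0.581 and 0.774 after. The core promoter letters TATAAA, searched from −60 to −20 bp on the strand of the gene, occurred in 7 inducible promoters (6.25%, against 2.98% of all promoters).

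The promoters of 4 genes are shown because they carry the comparison from κB sequence to occupancy: 3 inducible genes with matches, and Smarca4, the gene under knock-down, with none. Each run is 300 bases of mm9, 5′ to 3′ on the strand of the gene, and capitals mark κB matches, which start at −125 and −12 bp of the TSS in Tnfaip3, at 8 and 9 bp in Nfkbib, and at −159, −104 and −103 bp in Cxcl10, where neighbouring starts overlap. The windows lie at chr10:18735167-18735466 (minus strand) for Tnfaip3, chr7:29551494-29551793 (minus strand) for Nfkbib, chr5:92777866-92778165 (minus strand) for Cxcl10 and chr9:21420364-21420663 (plus strand) for Smarca4. A match is a description of letters and not a binding site.
Tnfaip3: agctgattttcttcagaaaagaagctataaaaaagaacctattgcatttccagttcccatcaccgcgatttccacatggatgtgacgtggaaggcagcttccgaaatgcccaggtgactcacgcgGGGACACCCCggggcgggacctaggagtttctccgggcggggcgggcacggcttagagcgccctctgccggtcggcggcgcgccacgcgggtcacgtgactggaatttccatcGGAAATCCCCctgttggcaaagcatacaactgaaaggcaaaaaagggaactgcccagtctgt
Nfkbib: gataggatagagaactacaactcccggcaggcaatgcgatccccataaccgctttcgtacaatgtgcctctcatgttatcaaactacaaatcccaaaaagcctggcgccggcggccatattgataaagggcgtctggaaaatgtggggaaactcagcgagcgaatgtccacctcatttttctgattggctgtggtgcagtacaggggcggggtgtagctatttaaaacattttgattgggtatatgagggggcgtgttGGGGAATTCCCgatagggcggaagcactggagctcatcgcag
Cxcl10: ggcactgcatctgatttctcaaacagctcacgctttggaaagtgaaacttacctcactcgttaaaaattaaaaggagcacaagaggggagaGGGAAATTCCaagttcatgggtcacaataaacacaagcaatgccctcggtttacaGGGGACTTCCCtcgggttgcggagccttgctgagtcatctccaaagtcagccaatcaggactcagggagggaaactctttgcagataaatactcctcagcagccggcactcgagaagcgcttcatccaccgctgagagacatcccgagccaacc
Smarca4: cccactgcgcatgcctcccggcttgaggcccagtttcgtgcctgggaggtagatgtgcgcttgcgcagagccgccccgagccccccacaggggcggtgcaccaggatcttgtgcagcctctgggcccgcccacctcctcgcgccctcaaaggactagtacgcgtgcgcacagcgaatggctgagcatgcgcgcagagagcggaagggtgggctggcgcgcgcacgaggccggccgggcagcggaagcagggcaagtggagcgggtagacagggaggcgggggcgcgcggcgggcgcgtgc

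Tnfaip3 (A20), a ubiquitin-editing inhibitor of NF-κB signalling, has 2 covered start sites, and the sequence above belongs to the upstream CGI start. Its patterning level there was 6.45 and −0.81 before and 8.05 and 10.0 after TNF-α, with both stimulated libraries higher (change 6.21 ± 5.23 SE, limma adjusted p = 0.934). At the downstream start (TSS 18731769, chromosome 10, no CGI) the level was −4.17 and 4.53 before and −0.09 and −1.36 after stimulation, and the states overlapped. The relative NDR occupancy of the upstream start, its mean over the NDR divided by its mean over 2 kb, was 0 and 1.31 before and 0.424 and 1.34 after, so replicates of 1 state disagreed on whether an NDR was present.

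Nfkbib, which encodes the NF-κB inhibitor IκBβ, had a positive patterning level in every library. Its levels were 8.43 and 14.6 before and 10.3 and 18.4 after stimulation, and overlapped between states (limma adjusted p = 0.974). Within either replicate number the stimulated library was the higher one. Its relative NDR occupancy was 0.959 and 0 before and 0 and 0 after stimulation. Cxcl10, a chemokine that attracts T cells, had levels of 3.22 and −1.03 before and 7.64 and 3.68 after TNF-α (limma adjusted p = 0.927), with relative NDR occupancies of 0.547 and 0.693 before and 0.479 and 0.017 after. Stimulated libraries of Cxcl10 were thus higher in patterning and lower in the NDR, without overlap in either measure. The patterning level gives the NDR bins a negative weight, so at any promoter these measures are not independent. In the controls the relative NDR occupancy of Cxcl10 went the other way, with 0.122 and 0 without and 0.579 and 0.550 with TNF-α.

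Smarca4 encodes Brg1, which the shRNA targets together with Brm (Smarca2, under the coverage limit and given below). Its levels were −6.84 and −2.96 before and 1.17 and 15.7 after stimulation, a change of 13.3 ± 5.07 SE (limma adjusted p = 0.917). Its relative NDR occupancy was 1.33 and 1.01 before and 0 in both stimulated libraries, and bins with signal numbered 131, 106, 88 and 91 of 200 in the 4 libraries. The controls had patterning levels of −1.37 and 3.77 without and 7.12 and 5.10 with TNF-α, also without overlap. Some promoters described below had control states apart as well, in either direction. Traf2, higher in the knock-down, was lower in the controls (3.86 and 9.54 without, −4.53 and 2.92 with TNF-α). So were Ccl5 (6.18 and −3.28 without, −3.95 and −17.7 with) and Acly (9.16 and 6.04 without, 0.27 and −2.70 with). Dusp1 was higher in both (controls 4.39 and 8.79 without, 12.0 and 16.9 with).

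Promoter by promoter, the test found next to nothing that held up over the whole set. With limma over all 8 control and knock-down libraries, 0 of 13559 promoters passed an adjusted p of 0.05 for the patterning level (0% called, smallest adjusted p = 0.452), and 686 (5.06%) had an unadjusted p below 0.05, of which 453 (3.34%) were higher and 233 (1.72%) lower after TNF-α. The median standard error of a promoter's change was 4.26, several times the median change of 0.59, which limits what single promoters can show. The interaction, the knock-down change minus the control change, also called 0 promoters (0%), with 764 (5.63%) at an unadjusted p below 0.05 by limma, of which 483 (3.56%) had the higher change in the knock-down and 281 (2.07%) the lower.

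Of the promoters with signal in all 8 libraries, 1 of 13309 (0.00751%) was called for relative NDR occupancy and 1 (0.00751%) for relative +1 occupancy, the latter in the window from 100 to 180 bp. At an unadjusted p below 0.05, limma gave 745 promoters (5.6%) for the NDR, 257 higher (1.93%) and 488 lower (3.67%), and 743 (5.58%) for +1, 429 higher (3.22%) and 314 lower (2.36%). The promoter called for the NDR was Gpr31b on chromosome 17, a receptor gene with no transcript in these cells, with relative NDR occupancies of 6.67 and 6.67 before and 0 and 0 after stimulation (limma adjusted p = 0.000762). It had signal in 20, 20, 10 and 17 of 200 bins of the 4 libraries. The promoter called for +1 was that of the microRNA Mir467a-2 on chromosome 2, which lies in a cluster of near-identical copies where the placement of reads is uncertain, with relative +1 occupancies of 0 and 0 before and 7.73 and 8.71 after TNF-α (limma adjusted p = 0.0300) and signal in 49, 76, 42 and 69 bins. With only the 4 knock-down libraries the limma adjusted p was 0.201 for Gpr31b and 0.748 for Mir467a-2, and the latter was 0.384, 0.192 and 0.0797 without non-stimulated replicate 1, non-stimulated replicate 2 and stimulated replicate 2. With promoters limited to the 9903 that had signal in at least 100 bins of every library, 0 were called for either measure.

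Without a test, the promoters whose states did not overlap leaned to one side. Both stimulated libraries were above both non-stimulated ones in patterning at 2711 promoters (20% of all covered) and below at 1822 (13.4%). Active promoters gave 1428 above (22.3%) and 751 below (11.7%), inducible promoters 32 (28.6%) and 14 (12.5%), and inactive promoters 352 (15.4%) and 362 (15.8%). In the controls the shares over all covered promoters were 15.7% above and 16.5% below. Relative NDR occupancy was above at 1623 promoters (12.2%) and below at 2735 (20.6%) in the knock-down, and below at 1454 active promoters (22.8%).

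**Figure D4:**
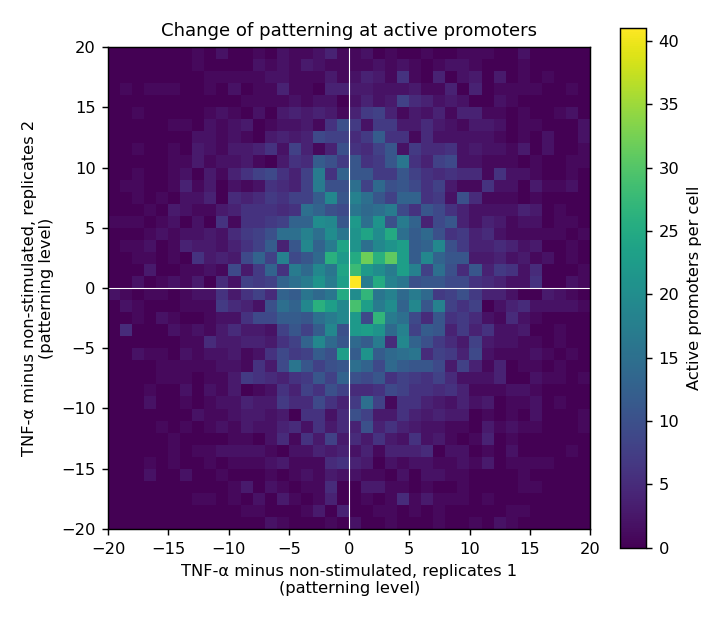
Change of patterning level upon TNF-α (stimulated minus non-stimulated) of active promoters in the replicates numbered 1 (x axis) and 2 (y axis) of BAF-knockdown cells, with colour for the number of promoters per cell of the grid. The cloud has no slant but its centre lies up and to the right of 0; 32.6% of active promoters were higher in both pairs and 18.6% lower in both, and 95.9% lie within the axes.

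Single promoters agreed little between replicates. Over the 13559 covered promoters the Spearman correlation of the patterning level was 0.264 between the non-stimulated and 0.379 between the stimulated replicates. Taken within replicate numbers 1 and 2, the mean change of active promoters was 1.18 and 1.22, with SDs across promoters of 7.04 and 8.45. The Spearman correlation of the 2 changes across the 6397 active promoters was 0.0082, and −0.0435 across the 112 inducible ones, as a description, since promoters of a library share its depth and digestion. The mean of the class was thus higher after TNF-α within either replicate number.

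Genes of the TNF pathway were examined through lists. The TNF and NF-κB signalling list, from receptors to feedback inhibitors, had 19 of 24 genes covered through 26 promoters. Of these, 0 were called, 7 were higher and 3 lower without overlap in patterning (20% and 13.4% of all covered promoters), and the median change was 1.41 against 0.59 over all covered promoters. Relative NDR occupancy was lower at 5 and higher at 2 (20.6% and 12.2% of all with signal). Its κB matches were at 12 promoters (46.2%). Of its 26 promoters, 1 had an unadjusted p below 0.05 by limma, against 5.06% of all covered.

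Among receptors and adaptors, Tnfrsf1b, the second TNF receptor, had patterning levels of 4.51 and 6.42 before and 18.8 and 9.16 after TNF-α, and relative NDR occupancies of 0.652 and 0.675 before and 0.074 and 0.334 after. Traf2, an adaptor that joins the receptor to the kinases, had −5.18 and −7.36 before and 7.60 and 2.12 after stimulation, the largest t-statistic of this list (change 11.1 ± 3.8 SE, limma adjusted p = 0.917). Birc2, a ubiquitin ligase of the receptor complex, had 0.29 and −10.4 before and 2.65 and 7.29 after. Members of this list and of the cytokine and immediate early lists were picked from those without overlap. Their lack of overlap is therefore no separate result. In these 3 promoters both stimulated libraries were higher.

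Among kinases, Ikbkb (IKKβ) had patterning levels of −0.17 and −3.64 before and 2.77 and 3.88 after TNF-α, and Ikbkg (NEMO, the scaffold of the kinase, TSS 71674655 on chromosome X) had 2.75 and −7.46 before and 8.0 and 6.84 after. Map3k7 (TAK1, the kinase above IKK) went the other way, with 4.77 and 9.23 before and −0.78 and −19.7 after stimulation. Lower levels without overlap were also found at Cyld, a deubiquitinase that restrains the pathway, with 10.5 and 15.7 before and 9.86 and −6.53 after. Bcl3, an atypical IκB protein, was lower as well, with 6.17 and 5.29 before and −1.28 and −0.86 after, and its relative NDR occupancy was 0.046 and 0.040 before and 0.898 and 0.439 after. All these promoters had limma adjusted p-values of 0.917.

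**Figure D5:**
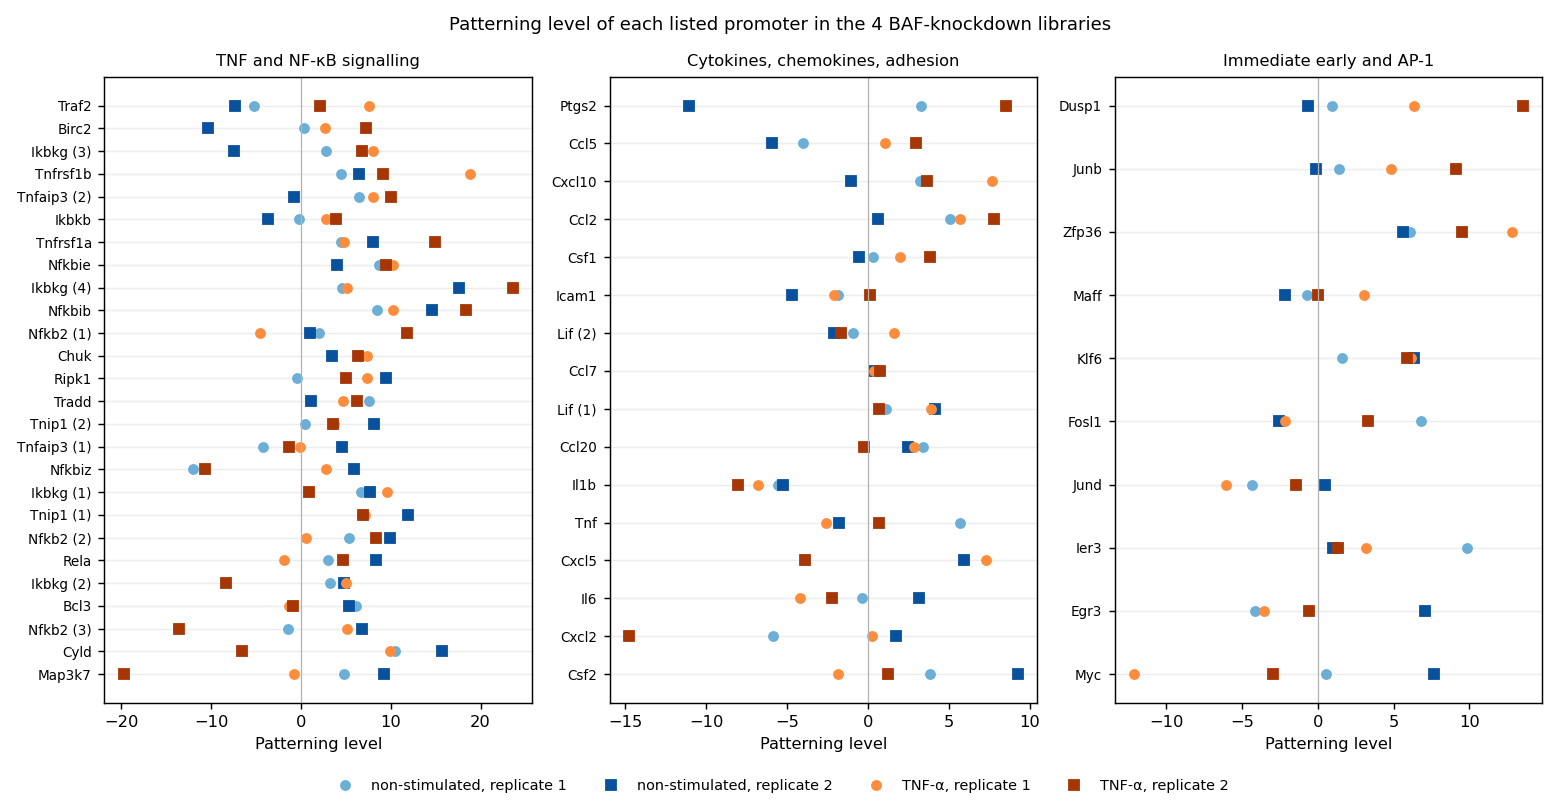
Patterning level (x axis) of every covered promoter of the TNF and NF-κB signalling, the cytokine and the immediate early lists (y axis; start sites of 1 gene are numbered along the chromosome), with 1 point per BAF-knockdown library and promoters ordered by their change. Replicates of 1 state often lie as far apart as the states, and promoters without overlap occur at both ends of each list.

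The list of TNF-inducible cytokines, chemokines and adhesion molecules had 15 of 20 genes covered through 16 promoters, of which 1 had a CGI and 8 (50%) a κB match. None of them was called, 5 were higher and 3 lower in patterning without overlap (20% and 13.4% of all covered), and the median change was −0.10 against 0.59 over all covered. Relative NDR occupancy was lower at 6 and higher at 5 (20.6% and 12.2% of all with signal).

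Ptgs2 (COX-2), the inducible enzyme of prostaglandin synthesis, had patterning levels of 3.28 and −11.1 before and 8.56 and 8.56 after TNF-α, and relative NDR occupancies of 0.142 and 2.55 before and 0.002 and 0 after. The chemokine promoters Ccl5 (−3.98 and −5.95 before, 1.08 and 2.96 after) and Ccl2 (5.09 and 0.60 before, 5.70 and 7.77 after) were also higher in patterning. Csf1, the macrophage growth factor, had 0.30 and −0.57 before and 1.99 and 3.83 after. Lower levels without overlap were found at Csf2 (GM-CSF), with 3.85 and 9.26 before and −1.87 and 1.25 after, at Il6, with −0.36 and 3.15 before and −4.18 and −2.20 after, and at Il1b, with −5.53 and −5.24 before and −6.80 and −8.0 after. Il1b was inactive in these cells and its level was negative in all 4 knock-down libraries, the reverse of the patterned arrangement. This did not hold elsewhere, as its level was −2.05 and 1.94 without and 0.43 and −1.12 with TNF-α in the controls. In the pooled non-stimulated fibroblasts it was 17.3.

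The immediate early and AP-1 list had 10 of 21 genes covered, each through 1 promoter, with 0 called, 4 higher and 1 lower in patterning without overlap (20% and 13.4% of all covered) and a median change of 0.28 against 0.59 over all covered. Dusp1, a MAP kinase phosphatase, had 0.94 and −0.62 before and 6.35 and 13.5 after stimulation. Zfp36, which destabilises cytokine mRNAs, had 6.07 and 5.62 before and 12.8 and 9.52 after. The AP-1 gene Junb had 1.39 and −0.12 before and 4.81 and 9.14 after, and Maff, a small Maf factor, had −0.69 and −2.14 before and 3.05 and 0.01 after. The growth regulator Myc was the lower one, with 0.53 and 7.65 before and −12.1 and −2.93 after TNF-α.

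Over all inducible promoters, the largest t-statistics in each direction were at genes outside these lists as well. Gadd45a, a stress sensor, had the largest t-statistic, with 2.73 and 3.68 before and 25.3 and 17.3 after TNF-α (18.1 ± 3.54 SE, limma adjusted p = 0.917), while its relative NDR occupancy was 0 in all 4 libraries. Cx3cl1, a membrane-bound chemokine, had 0.92 and 3.11 before and 12.5 and 10.1 after, and its relative NDR occupancy was 0.944 and 0.573 before and 0.073 and 0.024 after. In the other direction, Saa3, an acute-phase protein gene, had 2.47 and 4.27 before and −6.43 and −7.74 after (−10.5 ± 2.30 SE, limma adjusted p = 0.917). The death receptor gene Fas had 11.1 and 10.8 before and −1.07 and 4.71 after, and its relative NDR occupancy was 0 and 0 before and 1.5 and 0.908 after. Each of these had states without overlap in patterning, which is no separate result, since they were picked as extremes of the t-statistic.

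Some genes of interest lay at or under the coverage limit and were not tested. Nfkbia, which encodes IκBα, had a score of 100 and patterning levels of 2.26 and 8.51 before and 7.16 and 0.11 after TNF-α. The chemokine Cxcl1 (score 93.75) had 3.51 and 2.70 before and 4.52 and 6.19 after. Fos (score 72.75) had 6.60 and 1.66 before and 5.73 and −8.02 after, which overlapped. Smarca2, which encodes Brm, the other target of the shRNA, was lower without overlap at its start sites on chromosome 19. Levels were 7.59 and 11.5 before and 4.41 and −2.26 after at TSS 26679651 (score 49). At TSS 26822894 (score 33.75) they were 5.71 and 10.4 before and 2.37 and 1.22 after. The 1048 promoters with scores of 100 to 110 had median levels of 2.43, 2.07, 2.78 and 2.76 in the 4 libraries (both non-stimulated first), and the 1176 with scores of 90 to 100 had 1.85, 2.05, 2.64 and 2.63.

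Lists of other cell types served as a check of the labelled fibroblasts. In the pooled non-stimulated libraries, fibroblast marker promoters (8 of 14 genes covered) had a median patterning level of 10.4, against −0.87 for myeloid markers (13 of 14 genes, 16 promoters), 8.69 for the 2 covered promoters of epithelial markers and 5.73 for all covered promoters. These pooled libraries also supplied the mean profile behind the patterning level. In the knock-down libraries fibroblast markers had median levels of 1.45 and 2.73 before and 2.35 and 1.84 after TNF-α, against 1.94 and 2.01 before and 2.68 and 2.66 after over all covered promoters, and so were below all covered in 3 of 4 libraries. Myeloid markers had −2.68 and 0.39 before and 1.2 and −0.90 after stimulation, below all covered in each. Fibroblast markers were higher at 1 and lower at 3 promoters after TNF-α without overlap, and myeloid markers higher at 2 and lower at 2, with 0 called in either list, where 20% of all covered promoters were higher and 13.4% lower. Epithelial markers had 2 of 5 genes covered, and neither promoter was apart between states.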

How the data were processed

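H3K4me1 ChIP-MNase occupancy was measured in fixed 3T3 fibroblasts with BAF knock-down and in control fibroblasts, non-stimulated and after TNF-α. The authors aligned single-end reads to mm9 (the submitters' processing notes list Bowtie2 and bedtools), removed excess duplicates, extended reads to the mean fragment length and counted fragments in 10 bp bins. The deposited signal is this count relative to the surrounding 1 kb, averaged over 50 bp, in 200 bins per TSS. It holds no read counts, so depth is unknown, no counting interval can be given, and the share of bins with signal stands in for it. The deposited annotation also gives a coverage score and expression score per promoter, and a log2 array difference upon TNF-α from the authors, which served only to place promoters in the inducible class (limit 0.35, without the authors' significance criterion) and is not reported. Active promoters exceeded 0.02 times the mean expression of non-stimulated cells, inactive ones were at 0, and 4760 covered promoters belonged to no class. CGI were called from the mm9 sequence around the TSS (GC above 50%, observed over expected CpG above 0.6).

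Patterning level and relative NDR and +1 occupancy were computed in Python 3.11.15 (numpy 2.4.6, pandas 2.3.3, scipy 1.17.1). The template of the patterning level was the mean of active promoters in the pooled non-stimulated fibroblast library. Promoters were tested with limma 3.58.1 (R 4.3.3) over the 8 control and knock-down libraries with 4 group means and Benjamini-Hochberg adjustment over all promoters tested. The fit was also run on simulated data with normal noise and added changes much larger than the median observed change. That run does not cover small changes or sparse signal. One value per library was compared by exact permutation. Members and lists were chosen with earlier results of these data known. Promoters eligible for naming were up to 8 per list (those with the largest t-statistics among non-overlapping ones). Also eligible were 8 in each direction over all, 5 in each direction of the inducible class, and a few NF-κB and BAF genes whatever their values. The text gives values for only some of these. Alternatives varied scaling, filter, window, template, prior, weights and libraries, and leaving out promoters with signal in fewer than 100 bins was added after values were seen. DC, pol-II and pooled stimulated libraries were not used.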

Additional observations from a re-analysis of the deposited data

How the results depend on the processing

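The counts of promoters called for the patterning level and for the interaction were 0 under every alternative run, and the NDR ratio of active promoters kept its direction, between −0.143 and −0.128. For relative NDR occupancy the count of 1 became 0 with only the 4 BAF-knockdown libraries and with at least 100 bins, and ranged from 1 to 2 when each library was left out. The +1 count of 1 became 0 without a coverage filter, with a wider window, with only the 4 knock-down libraries, with the trended prior and with at least 100 bins, became 2 at a score above 200, and ranged from 0 to 2 when each library was left out. With the replicate number as a block the counts were 0 for patterning, 1 for NDR, 0 for +1 and 0 for the interaction. Across promoters, the deviations of same-numbered libraries from their group means were not correlated (r = 0.00591 in the knock-down and 0.00691 in the controls). Such a correlation cannot show whether same-numbered libraries share a library-wide level, as they did in the share of bins with signal. The median patterning difference of active promoters was 1.49 with libraries divided by their mean and 1.61 on the square root scale. The inducible NDR difference turned to 0.00396 at a score above 200. The median difference of inactive promoters, 0 as reported, was 0.0568 without a filter, 0.0627 at a score above 200, 0.0748 without empty promoters, 0.0242 with the control template and 0.117 with at least 100 bins. The cause was not tested. Directions turned at the downstream Tnfaip3 start (−5.26 to 3.45 when each library was left out) and at Nfkbib (−1.23 to 6.86), and at no other of 51 named results, over 723 settings. The interaction could not be fitted with only 4 libraries, division by the library mean leaves relative occupancies unchanged by construction, and the quadratic period could be computed for active promoters of all 4 libraries but not for every class. Sparse bins (a median of 141 to 164 of 200 with signal) and 2 libraries per state limit what single promoters can show.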

Other observations

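BAF complex subunits had 11 of 22 genes covered through 12 promoters, of which 0 were called by limma, 2 had an unadjusted p below 0.05 (5.06% of all covered), and 3 were higher and 1 lower in patterning without overlap (20% and 13.4% of all covered), with a median change of 1.01 against 0.59 over all covered promoters. Beside Smarca4, the higher ones were Pbrm1, a subunit of the related PBAF complex, with levels of 3.90 and 1.91 before and 23.8 and 15.4 after TNF-α, and Phf10, another PBAF subunit, with 1.14 and −0.75 before and 3.57 and 4.24 after. Relative NDR occupancy was lower without overlap at 4 of the 12 and higher at 1 (20.6% and 12.2% of all with signal). These examples were chosen after their values were seen.

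The interferon response list had all 14 genes covered through 17 promoters, with 0 called, 3 higher and 2 lower in patterning without overlap (20% and 13.4% of all covered) and a median change of −0.59 against 0.59 over all covered. Ifit1, an interferon-induced RNA-binding protein gene, had levels of 2.03 and 3.86 before and 4.40 and 6.68 after, and Irf3, the transcription factor upstream of interferon, had 8.68 and 9.81 before and 7.26 and −4.96 after. Of the large-subunit ribosomal protein genes, a constitutive set, 19 of 24 were covered through 23 promoters, with 0 called, 6 higher and 3 lower (20% and 13.4% of all covered) and a median change of −0.31. Rpl27a, a ribosomal protein gene outside this set of 24, was among the 8 lowest t-statistics of all covered promoters. Its patterning level fell from 17.7 and 13.1 in non-stimulated libraries to 3.54 and −0.01 in stimulated ones (limma adjusted p = 0.917).

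Over all covered promoters the largest t-statistics were at Nsdhl and Acly, enzymes of cholesterol and of acetyl-CoA synthesis, beside Gpr31b and the Mir467a locus. Nsdhl had −3.78 and −4.55 before and 15.5 and 20.1 after stimulation, and Acly had 3.26 and −6.85 before and 26.3 and 28.6 after. Both had a relative NDR occupancy of 0 in the 2 stimulated libraries and limma adjusted p-values of 0.917. Among the lowest, Ube2v2 had 10.3 and 8.94 before and −5.90 and −5.08 after, and Hpse, the gene of heparanase, had 15.8 and 10.3 before and −5.48 and −1.85 after.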
